A study of Mus musculus with 11 samples.

Results

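The genes described here are 8 epidermal keratins, the basal pair Krt5 and Krt14 and the 6 suprabasal keratins Krt1, Krt2, Krt10, Krt77, Krt78 and Krt80. They were chosen by name, and each was found among the 24421 genes listed for every RNA-seq library, which hold 52 keratin genes in all. Of the 8 members, 7 had enough counts to be tested among 14045 genes, and Krt2 did not. The study sequenced RNA from keratinocytes at the edge of healing skin wounds and from intact skin, and mapped accessible chromatin in the same conditions by ATAC-seq, an assay in which a transposase tags open DNA. Mice with K14-Cre and both Grhl3 alleles floxed (Grhl3-cKO) were compared with WT littermates that also carried K14-Cre. All were 8 weeks old, of both sexes and of strain C57BL/6 by the sample labels, given as C57BL/6J in the methods. K14-Cre acts in basal keratinocytes and their descendants, so recombination was not limited to the wound. At day 3 cells were taken from the wound margin (wounded) and from back skin away from it (unwounded). They were sorted for CD49f, the integrin encoded by Itga6, after removal of cells with CD45, CD31 or TER119. The study took intermediate and high levels of CD49f to capture both basal and suprabasal cells. RNA-seq comprised 7 libraries, of which 2 were WT unwounded, 2 WT wounded, 1 unwounded and 2 wounded with the Grhl3-cKO label (cKO-labelled). ATAC-seq comprised 4 peak lists, 1 per condition, each from cells of pooled mice. The labels do not say whether replicate libraries came from separate animals, so the p-values measure the spread between samples.

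Keratins form intermediate filaments as obligate pairs of a type I and a type II protein. Basal cells of the epidermis, which divide and attach to the basement membrane, make the pair KRT5 and KRT14, and cells that leave the basal layer switch to KRT1 and KRT10. Injury is known to induce a further set in epidermis, the stress keratins KRT6, KRT16 and KRT17.

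Depth was similar across libraries. Counts on genes came to 15488699 and 16807451 in WT unwounded, 16653948 and 15418631 in WT wounded, 13497283 in the unwounded cKO-labelled library and, in the wounded cKO-labelled pair, 15223569 and 14279568. All levels are given as CPM, counts scaled to the total on genes.

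The targeted gene, Grhl3, encodes a Grainyhead-like transcription factor of the epidermis. It stood at 122.2 and 83.2 CPM in WT unwounded, 109.9 and 90.0 CPM in WT wounded, 76.2 CPM in the unwounded cKO-labelled library and, in the wounded cKO-labelled pair, 115.9 and 104.4 CPM. In wounded cells it was not lower with the label, and the groups overlapped. The counts cover the whole gene and not the floxed exons alone, so they check the genotype only in part, and each library is called by its label. Deletion in these mice was checked in the study by PCR between the loxP sites and by GRHL3 staining of wounds, which the deposited files do not hold. The unwounded library labelled Grhl3-cKO stood apart from the other 6 in its sex-linked transcripts. It held 14854 counts of Xist, the RNA of the inactive X chromosome, against 3 to 32 counts elsewhere. It held 0 counts of the 4 Y-linked genes Ddx3y, Eif2s3y, Kdm5d and Uty, against sums of 2580 to 3589 counts elsewhere. These counts are those of female cells in that library and of male cells in the other 6. Fits were repeated without that library. Values without it are given for Krt1 and Krt10 in each comparison and for every tested member over all wounded libraries. Its part in the members' values was not tested.

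Markers of the sorted cells were checked first. The basal keratinocyte markers Krt5, Krt14, Col17a1, Itga6, Itgb4 and Trp63 summed to between 30890.0 and 44746 CPM per library. The suprabasal markers summed to 5773 and 6449 CPM in WT unwounded, 3275 and 4909 CPM in WT wounded, 8711 CPM in the unwounded cKO-labelled library and, in the wounded cKO-labelled pair, 6160.0 and 7735 CPM. Krt1 was the most abundant of these, while Lor, which encodes the cornified envelope protein loricrin, reached only 0.417 to 3.94 CPM and Flg was not listed. Most of both sums is member keratin RNA, so they restate the members. Without the members, the basal markers summed to between 7767 and 10565.8 CPM. The suprabasal markers left, Krtdap, Sbsn and Lor, summed to 416.8 and 461.4 CPM in WT unwounded, 309.9 and 350 CPM in WT wounded, 472.2 CPM in the unwounded cKO-labelled library and, in the wounded cKO-labelled pair, 382.5 and 400.4 CPM. The populations thus carried basal and suprabasal transcripts, with little Lor, and for Flg no level can be given. In these bulk libraries, fewer suprabasal cells and less suprabasal keratin RNA per cell cannot be told apart. Nor can a different share of cells sorted at each CD49f level.

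Markers of other cells were present at lower levels. Upper hair follicle and bulge markers, led by Krt15, summed to between 4183 and 7422 CPM, and sebaceous gland markers, led by Scd1, to between 712 and 983 CPM. Leukocyte markers, led by Cd74 and with Cd3e at 0, summed to between 8.15 and 50.9 CPM, and fibroblast markers, led by Col3a1, to between 11.04 and 46.6 CPM. Endothelial markers, led by Pecam1, summed to 0.296 to 19.3 CPM, and mural and smooth muscle markers, led by Acta2, to 1.11 to 30.3 CPM. Both of these sums were highest in WT wounded library 1. Melanocyte markers, led by Dct, summed to 1.07 to 9.55 CPM. Merkel cell markers, led by Krt18 with Krt20 and Atoh1 at 0, summed to 1.36 to 7.15 CPM. Erythroid markers, led by Alas2 with all 4 globin genes at 0, summed to 0 to 0.910 CPM.

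Several of these lists held genes that differed with wounding at an unadjusted P under 0.05, and 0 of their genes passed the adjusted threshold. No list was tested as a whole. Upper hair follicle and bulge markers summed to 6579 and 5777 CPM in WT unwounded, 5334 and 4183 CPM in WT wounded, 7422 CPM in the unwounded cKO-labelled library and, in the wounded cKO-labelled pair, 4311 and 5094 CPM. At an unadjusted P under 0.05, 4 of the 8 were lower with WT wounding, against 1.67% of all genes, at a median log2 fold change of −0.37. Over all wounded libraries 6 were lower, against 2.93%, at a median of −0.56. Endothelial markers summed to 1.29 and 2.86 CPM in WT unwounded, 19.3 and 6.23 CPM in WT wounded, 0.296 CPM in the unwounded cKO-labelled library and, in the wounded cKO-labelled pair, 8.87 and 8.61 CPM. With WT wounding 3 of the 5 tested were higher at that threshold, against 3.18% of all genes, at a median of 2.49. Mural and smooth muscle markers summed to 1.29 and 3.39 CPM in WT unwounded, 30.3 and 12.3 CPM in WT wounded, 1.11 CPM in the unwounded cKO-labelled library and, in the wounded cKO-labelled pair, 3.81 and 8.96 CPM. Of the 4 tested, 2 were higher with WT wounding, at a median of 3.22, and 2 were lower between the wounded groups, against 2.08% of all genes, at −2.41. These medians lean on WT wounded library 1, where Tagln had 198 counts against 13 in WT wounded library 2, and Myh11 had 31 against 0. Myh11 also had 0 counts in both wounded cKO-labelled libraries. With WT wounding 2 of 4 leukocyte, 2 of 4 melanocyte and 1 of 5 fibroblast markers were also higher at that threshold. Over all wounded libraries 3 of 5 endothelial, 3 of 5 fibroblast, 2 of 4 leukocyte, 2 of 4 mural and 1 of 4 melanocyte markers were higher, against 3.69% of all genes. In that comparison 2 of 4 sebaceous gland markers were lower, against 2.93% of all genes, at a median of −0.33. The part of these cells in the keratin values was not tested.

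The basal keratins were among the most abundant transcripts of these cells. Krt14, a type I keratin (ENSMUSG00000045545.8, minus strand, chr11:100203162-100207548), and Krt5, its type II partner (ENSMUSG00000061527.7, minus strand, chr15:101707070-101712898), ranked 2 and 3 of all genes by mean CPM. Coordinates are those of mm10, from GENCODE gene models. Krt5 stood at 13190.4 and 14535 CPM in WT unwounded, 10933 and 15372 CPM in WT wounded, 13488 CPM in the unwounded cKO-labelled library and, in the wounded cKO-labelled pair, 14891 and 12473 CPM. Krt14 stood at 13317 and 16654 CPM in WT unwounded, 12190.4 and 19442 CPM in WT wounded, 12952 CPM in the unwounded cKO-labelled library and, in the wounded cKO-labelled pair, 18664 and 15623 CPM. For either gene the lowest and the highest value among WT libraries both fell in the wounded group, so the groups overlapped. Per kilobase of exon, the level of Krt5 was 0.611 to 0.805 times that of Krt14 in each library.

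The suprabasal keratins spanned a wide range of levels. KRT1 (type II) and KRT10 (type I) are the main keratin pair of spinous cells. Krt1 (ENSMUSG00000046834.7, minus strand, chr15:101845426-101850794) stood at 2888 and 3652 CPM in WT unwounded, 1497 and 2573 CPM in WT wounded, 3980 CPM in the unwounded cKO-labelled library and, in the wounded cKO-labelled pair, 3039 and 3815 CPM. Krt10 (ENSMUSG00000019761.10, minus strand, chr11:99385254-99389364) stood at 2469 and 2336 CPM in WT unwounded, 1469 and 1986 CPM in WT wounded, 4259 CPM in the unwounded cKO-labelled library and, in the wounded cKO-labelled pair, 2739 and 3520 CPM. Both genes were lowest in the WT wounded pair and highest in the unwounded library labelled Grhl3-cKO. The wounded libraries with that label lay above both WT wounded ones. Per kilobase, the level of Krt1 was 0.805 to 1.35 times that of Krt10 across the 7 libraries.

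The remaining suprabasal members encode type II keratins with narrower expression. KRT77 is also known as keratin 1b and is found in suprabasal skin cells. Krt77 (ENSMUSG00000067594.6, minus strand, chr15:101858731-101869705) stood at 799 and 563 CPM in WT unwounded, 698 and 564 CPM in WT wounded, 1726 CPM in the unwounded cKO-labelled library and, in the wounded cKO-labelled pair, 708 and 1056 CPM. Krt78 (ENSMUSG00000050463.9, minus strand, chr15:101946001-101954287), a keratin of stratified epithelia, stood at 8.91 and 10.8 CPM in WT unwounded, 10.03 and 12.3 CPM in WT wounded, 39.6 CPM in the unwounded cKO-labelled library and, in the wounded cKO-labelled pair, 16.4 and 24.9 CPM. For both genes the WT groups overlapped, the wounded libraries labelled Grhl3-cKO lay above the WT wounded ones, and the unwounded library with that label was the highest of the 7. Krt80 (ENSMUSG00000037185.9, minus strand, chr15:101347444-101370162), which encodes a keratin that lies near desmosomes in differentiating cells, stood at 130.3 and 100.8 CPM in WT unwounded, 148.1 and 82.8 CPM in WT wounded, 198.0 CPM in the unwounded cKO-labelled library and, in the wounded cKO-labelled pair, 138.3 and 149.3 CPM. Its WT wounded values lay on either side of every WT unwounded value. Krt2 (ENSMUSG00000064201.8, minus strand, chr15:101810689-101818169), a keratin of the upper spinous and granular layers that is abundant in ear and tail skin, had 10 and 2 counts in WT unwounded, 0 in both WT wounded, 7 in the unwounded cKO-labelled library and, in the wounded cKO-labelled pair, 0 and 2 counts. A count of 0 allows a level of up to 0.180, 0.195 and 0.197 CPM in the libraries without a count, at 3 counts and for counting error alone, so no fold change is given for Krt2.

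Ordered by mean level per kilobase of exon, Krt14 came first with 9157 CPM per kb, then Krt5 with 6169.6 CPM per kb. Krt10 followed with 1269 and Krt1 with 1248 CPM per kb, and these neighbours exchanged places between libraries. Below them came Krt77 with 298 CPM per kb, Krt80 with 30.2 CPM per kb and Krt78 with 5.10 CPM per kb. Over the libraries Krt14 spanned 7179 to 11450.2 CPM per kb and Krt5 4976 to 6997, without overlap, and apart from Krt10 and Krt1 the order of these 7 was the same in every library.

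**Figure D1:**
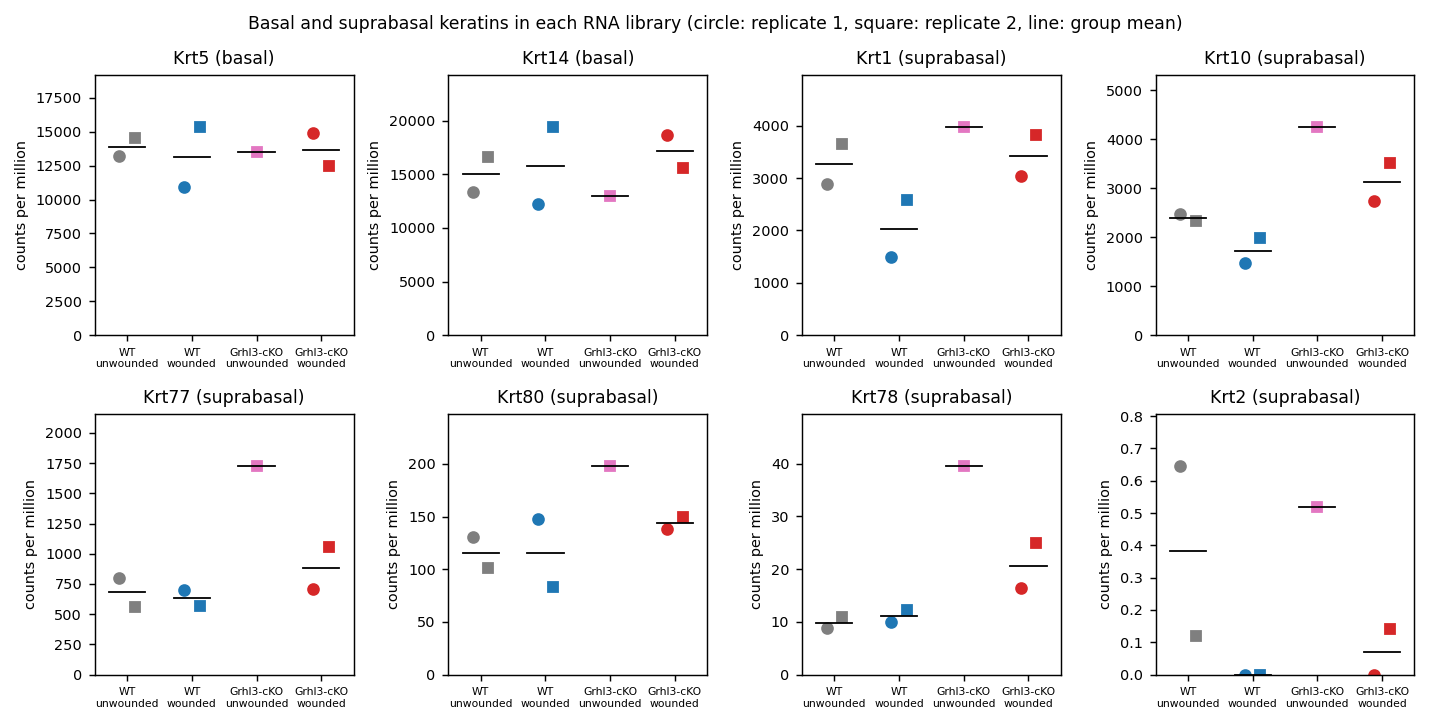
CPM of each of the 8 member keratins, 1 panel a gene on a linear axis from 0, with a circle for replicate 1, a square for replicate 2 and a line for the group mean. The basal keratins sit at 10933 CPM or more in all 7, Krt1 and Krt10 are lowest in the WT wounded pair, and Krt77 and Krt78 are highest in the unwounded library labelled Grhl3-cKO.

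The balance of differentiated to basal keratin RNA was taken per library as the summed CPM of the 6 suprabasal members over the summed CPM of Krt5 and Krt14. The suprabasal sum was 6295 and 6662 CPM in WT unwounded, 3821 and 5219 CPM in WT wounded, 10204 CPM in the unwounded cKO-labelled library and, in the wounded cKO-labelled pair, 6640 and 8565 CPM. The basal sum was 26508 and 31189 CPM in WT unwounded, 23123 and 34814 CPM in WT wounded, 26440 CPM in the unwounded cKO-labelled library and, in the wounded cKO-labelled pair, 33555 and 28097 CPM. The resulting ratio was 0.237 and 0.214 in WT unwounded, 0.165 and 0.150 in WT wounded, 0.386 in the unwounded cKO-labelled library and, in the wounded cKO-labelled pair, 0.198 and 0.305. The WT wounded libraries had the lowest ratios, and the spread was widest between the wounded libraries labelled Grhl3-cKO.

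On average the ratio was 0.226 ± 0.0169 (SD, n = 2) in WT unwounded and 0.158 ± 0.0109 (SD, n = 2) in WT wounded keratinocytes, a log2 difference of −0.52 with no overlap. It was 0.251 ± 0.0756 (SD, n = 2) in the wounded libraries labelled Grhl3-cKO, a log2 difference of 0.64 from WT wounded, again with no overlap. Against the single unwounded library with the label the log2 difference was −0.65. These are differences between means of the log2 ratio. Over all wounded against all unwounded libraries the difference was −0.46 and the groups overlapped, and it was −0.20 without the unwounded library labelled Grhl3-cKO. That last value sets wounded libraries of both labels against WT unwounded ones alone, so genotype label and wounding cannot be told apart in it. The SD of the log2 ratio within groups was 0.27, which is above the size of that last difference and below those of the others. When Krt1 and Krt10 alone were set over the basal pair, the log2 differences were −0.60 for WT wounding and 0.71 between the wounded groups. When members were averaged on the log scale, so that the scarce keratins counted as much as the abundant ones, the differences were −0.21 and 0.56 and the groups overlapped. Without wounded library 2 labelled Grhl3-cKO the difference between the wounded groups was 0.33, and without library 1 it was 0.95. The ratio is a score over chosen genes and is described without a test.

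**Figure D2:**
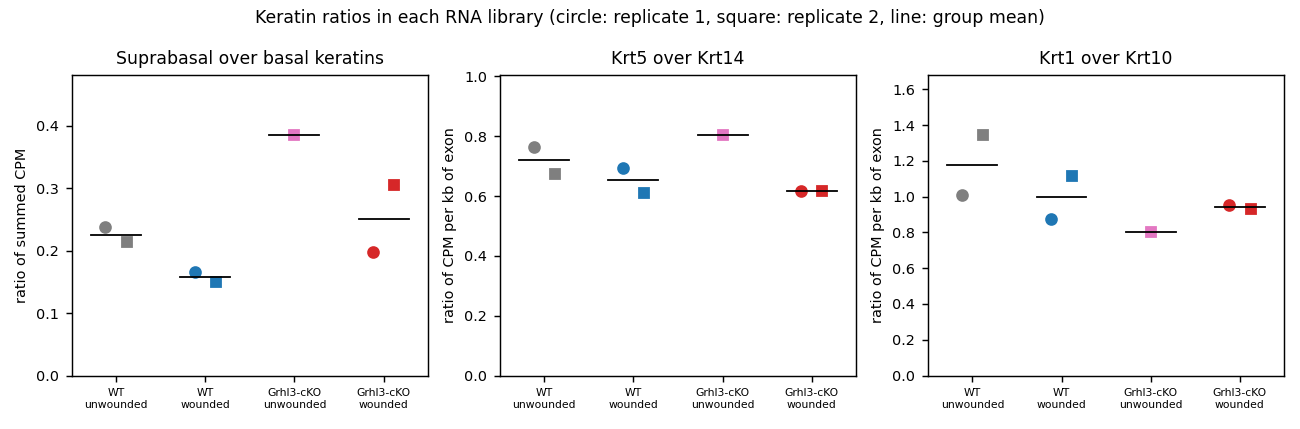
Ratios in each library, of suprabasal to basal summed CPM on the left and, per kb of exon, of Krt5 to Krt14 and of Krt1 to Krt10 in the other panels, with a circle for replicate 1, a square for replicate 2 and a line for the group mean. On the left the WT wounded libraries are the lowest at 0.150 and 0.165, and the unwounded library labelled Grhl3-cKO is the highest at 0.386.

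Wounding in WT skin addresses how the keratin program of margin keratinocytes differs from that of distant epidermis at day 3. In WT the basal keratin transcripts overlapped between the groups, while Krt1 and Krt10 had lower values at the wound margin. Krt10 averaged 1728 ± 366 CPM (SD, n = 2) in wounded and 2402 ± 94.0 CPM (SD, n = 2) in unwounded libraries. Its log2 fold change was −0.45 (standard error, SE, 0.16; unadjusted P = 0.0134, adjusted P = 0.843). Krt1 averaged 2035 ± 761 CPM (SD, n = 2) in wounded and 3270 ± 541 CPM (SD, n = 2) in unwounded libraries. Its log2 fold change was −0.66 (SE 0.20, unadjusted P = 0.00551, adjusted P = 0.693), which places it 110 of 14045 genes by P. For both genes each of the 2 wounded libraries lay below each unwounded one, although WT wounded library 2 lay close to the unwounded pair for Krt1. The other tested members overlapped between the groups, with log2 fold changes from −0.09 for Krt77 to 0.20 for Krt78.

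Members passing the adjusted threshold of 0.05 numbered 0 of 7 by edgeR, where 0.0285% of all tested genes passed. DESeq2 also passed 0 members, against 0.178% of the genes it tested. At an unadjusted P under 0.05 there were 2 members, Krt1 and Krt10, against 4.84% of all genes. Split by direction, 2 members were lower (1.67% of all genes) and 0 were higher (3.18% of all genes) at that threshold by edgeR. The WT groups did not overlap in the lower direction for 2 members, against 16.2% of all genes, and in the higher direction for 0 members, against 16.7%. The 5 suprabasal members tested had a median log2 fold change of −0.09, with 2 higher and 3 lower, beside a median of 0.00 over all genes. The 4 genes that edgeR called, named after their values were seen, were Mmp9, Xist, Pmepa1 and Cald1. Without the unwounded library labelled Grhl3-cKO, which is part of the same fit and of its filter, 0 genes were called, with log2 fold changes of −0.65 for Krt1 and −0.45 for Krt10. Without WT wounded library 2, Krt1 passed at a log2 fold change of −1.12 (adjusted P = 0.0219). Over all alternatives tried the adjusted P ranged from 3.29e-15 to 1 for Krt1 and from 4.43e-06 to 1 for Krt10, both lowest with the replicate number as a block. That blocked fit has nearly as many terms as libraries, so its spread is poorly estimated and its low P-values are weak evidence. Without WT wounded library 1, Krt1 had a log2 fold change of −0.32 and Krt10 one of −0.25, and 29 genes were called. The number called was 8 without WT wounded library 2, 0 without WT unwounded library 2, and 2 without WT unwounded library 1 or without either wounded cKO-labelled library. Krt10, at −0.40, did not reach an unadjusted P under 0.05 without WT unwounded library 1. Krt1, at −0.49, did not reach it without WT unwounded library 2. Leaving out WT wounded library 1, neither reached it, and the basal Krt14 then stood at 0.40.

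Wounded keratinocytes of the 2 genotype labels were compared to describe how the keratins differ by label at the wound margin. Here the suprabasal keratins other than Krt2, which was not tested, had higher mean values in the libraries labelled Grhl3-cKO, and the basal pair overlapped between the groups. This comparison shares its WT wounded libraries with the wounding comparison in WT, so low values there enter both. Krt10 averaged 3129 ± 552 CPM (SD, n = 2) with the label and 1728 ± 366 CPM in WT, a fitted difference of 1.83-fold. Its log2 fold change was 0.87 (SE 0.16, unadjusted P = 6.53e-05, adjusted P = 0.459 by edgeR), and it ranked 2 of all genes by P. DESeq2 called Krt10 at an adjusted P of 0.00406, with a range from 1.96e-05 to 1 over the alternatives. Krt1 averaged 3427 ± 549 CPM (SD, n = 2) with the label, and its log2 fold change was 0.77 (SE 0.20, unadjusted P = 0.00177, adjusted P = 1). Krt78 averaged 20.6 ± 6.01 CPM (SD, n = 2) with the label and 11.1 ± 1.58 CPM (SD, n = 2) in WT, with a log2 fold change of 0.90 (SE 0.30, unadjusted P = 0.00929, adjusted P = 1). Krt77 averaged 882 ± 246 CPM (SD, n = 2) with the label and 631 ± 94.3 CPM (SD, n = 2) in WT, with a log2 fold change of 0.50 (SE 0.20, unadjusted P = 0.0235, adjusted P = 1). In these 4 genes both labelled libraries lay above both WT libraries. Krt80, at a log2 fold change of 0.34, and the basal keratins Krt14, at 0.14, and Krt5, at 0.08, overlapped between the groups.

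By edgeR, 0 of 7 members passed the adjusted threshold, and of all tested genes 0% did. With an unadjusted P under 0.05, 4 members passed, against 4.04% of all genes. All 4 were higher, against 1.96% of all genes, and 0 were lower, against 2.08%. DESeq2 called 1 member, Krt10, against 0.0259% of the genes it tested, the other genes being Cald1 and Prss22. The groups did not overlap in the higher direction for 4 members, against 15.3% of all genes, and in the lower direction for 0, against 15.2%. The median log2 fold change of the 5 suprabasal members tested was 0.77, with 5 higher, beside −0.01 over all genes, of which 48.5% were higher. Under every scaling tried these 5 kept that direction, and no scaling moved the median of all genes by more than 0.1. Without WT wounded library 2, edgeR called 2 members among 21 genes. These were Krt1 at a log2 fold change of 1.23 (adjusted P = 0.00985, range 0.000385 to 1) and Krt10 at 1.12 (adjusted P = 0.0124, range 1.96e-05 to 1), and Krt80 then stood at −0.01. Without WT wounded library 1 the values were 0.43 for Krt1 and 0.67 for Krt10, and 8 genes were called. Leaving out the unwounded library labelled Grhl3-cKO gave 0.77 for Krt1 and 0.88 for Krt10, with 0 genes called. Leaving out either WT unwounded library gave 1 gene called. Without wounded cKO-labelled library 2, Krt77, at 0.23, and Krt78, at 0.61, did not reach an unadjusted P under 0.05. Without WT wounded library 2, Krt77, at 0.37, did not reach it, and the basal keratins stood at 0.36 for Krt5 and 0.53 for Krt14. Leaving out WT wounded library 1, Krt78, at 0.76, did not reach it, and Krt80 stood at 0.81.

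All 4 wounded libraries were also set against all 3 unwounded ones, with the genotype label as a term in the fit. Krt1, Krt10 and Krt77 had lower fitted values in wounded libraries at an unadjusted P under 0.05, and the basal pair did not reach it. Without the genotype term none of the 3 reached it, with log2 fold changes of −0.34 for Krt1 (unadjusted P = 0.178), −0.31 for Krt10 (0.288) and −0.44 for Krt77 (0.181), and with the replicate number as a block Krt77 did not. Log2 fold changes were −0.45 for Krt10 (SE 0.13, unadjusted P = 0.00389, adjusted P = 0.323) and −0.49 for Krt1 (SE 0.18, unadjusted P = 0.0152, adjusted P = 0.537). Krt77 had a log2 fold change of −0.46 (SE 0.19, unadjusted P = 0.0322, adjusted P = 0.665). The remaining members had log2 fold changes of −0.30 for Krt78, −0.18 for Krt80, −0.02 for Krt5 and 0.22 for Krt14. With both labels pooled, the wounded and unwounded values overlapped for each of the 7 members, where 3.24% of all genes were lower and 3.09% higher without overlap. EdgeR called 0 members at the adjusted threshold, against 0.0356% of all genes, and DESeq2 called 0, against 0.897%. With an unadjusted P under 0.05 there were 3 members, against 6.61% of all genes. By direction, 3 were lower, against 2.93% of all genes, and 0 were higher by edgeR, against 3.69%. The 5 suprabasal members had a median of −0.45, beside 0.01 over all genes, of which 51.8% were higher. The 5 genes called, named after their values were seen, were Col8a2, Gjb2, Tmtc1, Nav1 and Pmepa1. These values lean on the unwounded library labelled Grhl3-cKO, the only female one by its sex-linked transcripts. Without it, wounding is estimated from the WT libraries alone, so the fit repeats the WT comparison and is no second estimate over all wounded libraries. Krt77 is then at −0.09, Krt78 at 0.21, Krt80 at 0.02, Krt1 at −0.65 and Krt10 at −0.45, with 0 genes called. The basal keratins are then at −0.04 for Krt5 and 0.11 for Krt14. The number of genes called was 119 without WT wounded library 1, 56 without WT unwounded library 2, and 0 without any of WT unwounded 1, WT wounded 2 or either wounded library labelled Grhl3-cKO. As each library was left out, the log2 fold change of Krt10 ran from −0.58 to −0.35. Krt1 did not reach an unadjusted P under 0.05 without WT wounded library 1, at −0.27, or without WT unwounded library 2, at −0.36. Krt77 did not reach it when any library other than these was left out. Without WT wounded library 1, Krt77 stood at −0.61, Krt80 at −0.46 and the basal Krt14 at 0.40.

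Within the Grhl3-cKO label the wounded libraries can be set only against 1 unwounded library, the one that stood apart, so differences have no replicate check on that side. That library is the only female one by sex-linked transcripts, so sex and wounding cannot be told apart here. Suprabasal keratins were lower in both wounded libraries, most of all Krt77 and Krt78. For Krt77 the log2 differences were −1.26 and −0.76, and for Krt78 they were −1.24 and −0.72. For Krt10 they were −0.61 and −0.32, for Krt80 −0.49 and −0.46, and for Krt1 −0.36 and −0.11. Krt14 was higher in both, by 0.56 and 0.22, and Krt5 lay on either side, at 0.17 and −0.16. Members at least 2-fold lower in both libraries numbered 0, against 3.89% of all genes, and 0 were at least 2-fold higher, against 5.69%. Without wounded library 2 of that label, 2 members were at least 2-fold lower, Krt77 and Krt78, against 9.76% of all genes. No test was made, and whether wounding acts differently under the 2 genotype labels was not tested.

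Across the 7 libraries the basal pair varied together, while r between suprabasal keratins ranged from high to low and was not always above that between layers. The log2 CPM of Krt5 and Krt14 correlated at a Pearson r of 0.83, and that of Krt1 and Krt10 at 0.89. Krt77 correlated with Krt78 at 0.87 and with Krt80 at 0.87, and Krt10 with Krt78 at 0.86. Krt14 and Krt10 correlated at 0.05, Krt5 and Krt1 at 0.52, Krt1 and Krt77 at 0.47, and Krt1 and Krt80 at 0.17. Between a basal and a suprabasal keratin r ran from −0.57 for Krt14 and Krt80 to 0.52 for Krt5 and Krt1. These r values describe 7 libraries that share groups and depth, and the unwounded library labelled Grhl3-cKO is an extreme point for the suprabasal genes. Without it, a choice made after seeing the data, r was 0.91 for Krt5 and Krt14, 0.89 for Krt1 and Krt10, 0.63 for Krt77 and Krt78, 0.78 for Krt77 and Krt80, 0.74 for Krt10 and Krt78, 0.39 for Krt14 and Krt10, 0.54 for Krt5 and Krt1, 0.23 for Krt1 and Krt77 and −0.15 for Krt1 and Krt80. Between layers r ran from −0.58 for Krt5 and Krt80 to 0.54 for Krt5 and Krt1 without that library. Of 5158 well-expressed genes, those with values most like Krt10 were Mcur1 (r = 0.992), Rpl21 (0.989), Hltf (0.973), Eef1a1 (0.972) and Cst3 (0.971) over the 7 libraries. Those most like Krt14 were Rfng (r = 0.982), Gpx1 (0.966), Gpc1 (0.965), Glo1 (0.964) and Pdk1 (0.951). Without that library these 10 genes had r values of 0.951 to 0.986.

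Stress keratins are the wound counterparts of the members, and all 4 listed genes, Krt6a, Krt6b, Krt16 and Krt17, were tested. Together they summed to 4448 and 5557 CPM in WT unwounded, 6495 and 9644 CPM in WT wounded, 2611 CPM in the unwounded cKO-labelled library and, in the wounded cKO-labelled pair, 7000 and 4834 CPM. The WT wounded values exceeded the WT unwounded ones, opposite in direction to Krt1 and Krt10. The median log2 fold change was 0.92 with WT wounding, −0.47 between the wounded groups and 1.20 over all wounded libraries, beside 0.00, −0.01 and 0.01 over all genes. As each library was left out, the medians ran from 0.42 to 1.48, from −0.86 to 0.16 and from 0.93 to 1.57, and the one between the wounded groups was above 0 without WT wounded library 2. At an unadjusted P under 0.05, 3 were higher and 0 lower with WT wounding (3.18% and 1.67% of all genes). Between the wounded groups 0 were higher and 1 lower (1.96% and 2.08%). Over all wounded libraries 3 were higher and 0 lower (3.69% and 2.93%), while 0 passed the adjusted threshold of edgeR in any of these. Krt16, a type I partner of KRT6 and the most abundant, stood at 1790.2 and 2009 CPM in WT unwounded, 2452 and 3350.4 CPM in WT wounded, 1344 CPM in the unwounded cKO-labelled library and, in the wounded cKO-labelled pair, 2887 and 2152 CPM. Its log2 fold change with WT wounding was 0.64 (SE 0.18, unadjusted P = 0.00294). Krt6b had the largest log2 fold changes, at 2.13 with WT wounding (unadjusted P = 0.00583) and 3.36 over all wounded libraries, although its groups overlapped in both. The latter value was 2.15 without the unwounded cKO-labelled library. Its levels were 39.45 and 266.2 CPM in WT unwounded and 233.4 and 1075.1 CPM in WT wounded, so replicates lay far apart. Krt17 was lower between the wounded groups at −0.71 (SE 0.17, unadjusted P = 0.000755, adjusted P = 0.783). Krt6a and Krt6b are near-identical in sequence, and reads without a unique place were not counted on genes.

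Other keratins sit outside the interfollicular program. Of 24 hair follicle keratins, 14 were tested, and Krt33b, Krt34, Krt81, Krt82, Krt85 and Krt86 were at 0 in every library. Their summed level ran from 3058 to 5748 CPM, most of it from Krt15, a keratin of the bulge and basal layer. Krt15 stood at 2881 and 2751 CPM in WT unwounded, 2189 and 2010.1 CPM in WT wounded, 4746 CPM in the unwounded cKO-labelled library and, in the wounded cKO-labelled pair, 2270 and 2517 CPM. As with Krt10, the WT wounded pair was lowest and the unwounded library labelled Grhl3-cKO highest. The log2 fold change of Krt15 was −0.40 with WT wounding (SE 0.13, unadjusted P = 0.00836) and −0.64 over all wounded libraries (SE 0.13, unadjusted P = 0.000228, adjusted P = 0.110). Some hair shaft and root sheath keratins were counted mainly in WT wounded library 1, with 176 counts of Krt25, 169 of Krt35, 51 of Krt31 and 40 of Krt36, against at most 5 counts of each in any other library. Others were not, as Krt32 had its fewest counts there, 17 against 26 to 82, Krt26 had 1 there and 10 in WT wounded library 2, Krt27 had 16 there and 16 in wounded cKO-labelled library 2, and Krt28 was counted in all 7. These genes were singled out after their values were seen. WT wounded library 1 also had the lowest Krt1 and Krt10 values, and the part of follicle cells in them was not tested. Since several of the 14 had no count in whole groups, no median is given. With an unadjusted P under 0.05, 3 were higher and 2 lower with WT wounding (3.18% and 1.67% of all genes). Between the wounded groups 0 were higher and 3 lower (1.96% and 2.08%). Over all wounded libraries 2 were higher and 2 lower (3.69% and 2.93%). Among those with a mean log2 CPM of at least 1, Krt75 had the largest positive change with WT wounding at 1.30 and Krt32 the largest negative one at −1.16. Krt75 stood at 5.75 and 1.61 CPM in WT unwounded and at 13.87 and 4.02 CPM in WT wounded libraries, so its groups overlapped. Of 11 listed keratins of simple and mucosal epithelia, 6 were tested and Krt20 and Krt76 were at 0. The most abundant of them, Krt24, averaged 13.9 CPM, the median log2 fold changes of the 6 were 0.10, 0.30 and 0.23 in the same order, and 0 genes had an unadjusted P under 0.05 by edgeR in any comparison. The first of these medians ran from −1.22 to 0.32 and the second from −0.50 to 1.64 as each library was left out. Krt23 had log2 fold changes of 0.28, −0.71 and 0.45 and Krt24 one of 0.66 between the wounded groups. The value of Krt23 changed sign in each comparison with 1 library left out.

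Genes that share a layer with the members gave a mixed picture. The 10 basal layer genes other than keratins, which encode hemidesmosome, integrin and laminin proteins and p63, had median log2 fold changes of 0.33 with WT wounding, −0.11 between the wounded groups and 0.16 over all wounded libraries. As each library was left out they ran from 0.09 to 0.57, from −0.48 to 0.11 and from 0.04 to 0.34. With WT wounding 4 were higher and 0 lower at an unadjusted P under 0.05 (3.18% and 1.67% of all genes). Between the wounded groups 0 were higher and 3 lower (1.96% and 2.08%). Over all wounded libraries 2 were higher and 0 lower (3.69% and 2.93%). The most abundant of the list, Col17a1, had log2 fold changes of 0.13 with WT wounding and 0.06 between the wounded groups, and either changed sign with 1 library left out. Trp63 had a log2 fold change of −0.04 with WT wounding, and Dst had ones of 0.14 between the wounded groups and −0.24 over all wounded libraries, with 0.23 in the WT libraries once the unwounded library labelled Grhl3-cKO was left out.

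Spinous and desmosome genes other than keratins had medians near 0 as a list. The 13 genes, all tested, had median log2 fold changes of −0.07, 0.07 and −0.02 in the WT wounding, wounded-group and all-wounded comparisons. At an unadjusted P under 0.05, 0 were higher and 2 lower with WT wounding (3.18% and 1.67% of all genes). Between the wounded groups 2 were higher and 0 lower (1.96% and 2.08%). Over all wounded libraries 0 were higher and 1 lower (3.69% and 2.93%), with 0 past the adjusted threshold of edgeR in any of these. Dsp, the desmosomal plaque gene and the most abundant, lay between 11462 and 13418 CPM in all 7 libraries. The small secreted protein gene Krtdap had a log2 fold change of 0.64 between the wounded groups (unadjusted P = 0.0131), and Sbsn one of −0.47 over all wounded libraries (unadjusted P = 0.00141). Further log2 fold changes were −0.54 for Calml3 and 0.12 for Jup with WT wounding, −0.25 for Tgm1 between the wounded groups and 0.11 for Dmkn over all wounded libraries, with −0.18 for Dmkn in the WT libraries when the unwounded cKO-labelled one was left out.

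Granular layer genes summed to between 144.6 and 314.6 CPM per library, and their most abundant gene, Klk7, averaged 83.1 CPM. Median log2 fold changes over the 10 listed genes were −0.19, 0.54 and −0.16 in the 3 comparisons. The first ran from −0.66 without WT wounded library 1 to 0.72 without WT unwounded library 1. At an unadjusted P under 0.05, 0 were higher and 1 lower with WT wounding (3.18% and 1.67% of all genes). Between the wounded groups 2 were higher and 0 lower (1.96% and 2.08%). Over all wounded libraries 1 was higher and 1 lower (3.69% and 2.93%). Asprv1, the gene of a protease that processes filaggrin, stood at 48.8 and 47.7 CPM in WT unwounded, 27.7 and 25.0 CPM in WT wounded, 34.2 CPM in the unwounded cKO-labelled library and, in the wounded cKO-labelled pair, 58.2 and 47.6 CPM. Like Krt10, it was lowest in the WT wounded pair, but it was not high in the unwounded library labelled Grhl3-cKO. Its log2 fold change was −0.85 with WT wounding (SE 0.22, unadjusted P = 0.00156) and 1.03 between the wounded groups (SE 0.22, unadjusted P = 0.000282, adjusted P = 0.783). Flg2 had a fitted log2 fold change of 2.58 with WT wounding and −6.16 without WT wounded library 1, since the other wounded library had 0 counts of it. Further log2 fold changes were −0.47 for Klk7 between the wounded groups, and 0.36 for Tgm3 and −0.69 for Klk5 over all wounded libraries. Klk7 stood at 0.50 without WT wounded library 1, and in the WT libraries, with the unwounded cKO-labelled one left out, Tgm3 stood at −0.06.

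Transcription factors known to act on epidermal keratin genes were listed as 24 genes, all tested. Their median log2 fold changes were −0.02, 0.12 and −0.06 in the 3 comparisons. At an unadjusted P under 0.05, 2 were higher and 1 lower with WT wounding (3.18% and 1.67% of all genes). Between the wounded groups 4 were higher and 0 lower (1.96% and 2.08%). Over all wounded libraries 0 were higher and 2 lower (3.69% and 2.93%). By edgeR 0 passed the adjusted threshold. Jun, an AP-1 subunit and the most abundant, averaged 2522 CPM. With WT wounding the log2 fold change was 0.60 for Maf and −0.38 for Cebpa, and between the wounded groups it was 0.44 for Cebpa and −0.13 for Maf. Without WT wounded library 2, Maf stood at −0.06 and 0.53 in these comparisons. Over all wounded libraries it was −0.34 for Klf4, a factor of the barrier program, and −0.12 in the WT libraries with the unwounded cKO-labelled one left out.

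Chromatin accessibility was available as peak lists, of 10769 peaks in WT unwounded, 36872 in WT wounded, 29364 in unwounded and 22474 in wounded cells labelled Grhl3-cKO. The lists differ in length and have no replicates, so differences between them were not tested. A gene with no listed peak can still be accessible below the calling threshold. From its read tracks, the study reported no significant effect of Grhl3 loss on accessibility at Krt14 and Krt1. Peaks in or within 5 kb of a member were found in the WT wounded list, where there were 4, and in the unwounded list labelled Grhl3-cKO, where there were 5. In the WT unwounded list 0 of the 7 tested members had one, against 50.7% of 13533 tested genes with a gene model, and in the wounded list labelled Grhl3-cKO 0 had one, against 68.7%. In the WT wounded list 2 members had one, against 84.6%, and in the unwounded list labelled Grhl3-cKO 5 had one, near the 81.0% of all genes and with 1 region counted for both Krt1 and Krt77. Each of the member peaks had a fold enrichment over local background below its list's median, which was 4.21 in WT wounded and 4 in unwounded cKO-labelled cells. Their −log10 q-values ran from 1.37 to 2.69, near the lowest of these lists, 1.03 and 1.01.

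The basal keratin peaks lay upstream of the genes. Krt14 had a peak in WT wounded cells with a fold enrichment of 3.29, and in the unwounded list labelled Grhl3-cKO one with a fold enrichment of 3.15. In the latter list Krt5 had a peak at chr15:101713971-101714153, 1073 to 1255 bases upstream of its start, with a fold enrichment of 3.49. For the suprabasal members, a peak at chr15:101855407-101855946 in that list, with a fold enrichment of 3.56, lay 4613 bases upstream of the start of Krt1 and 2785 bases past the end of Krt77, so 1 region counts for both genes.

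Krt80 had the most peaks of the members. In the WT wounded list these were chr15:101364751-101365066 in an intron with a fold enrichment of 3.92, chr15:101370265-101370653 with 3.61, which lies 103 to 491 bases upstream of the start, and chr15:101373418-101373861 with 3.39. In the unwounded list labelled Grhl3-cKO they were chr15:101364518-101364823, which overlaps an exon, with a fold enrichment of 3.41, and chr15:101373480-101373853 with 3.43. The peaks inside the gene overlapped between the lists, as did the farthest upstream ones, and the peak just upstream of the start was only in the WT wounded list. Krt2, Krt10 and Krt78 had no peak within 5 kb in any of the 4 lists. At a fold enrichment of at least 4, 0 member peaks were left.

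**Figure D3:**
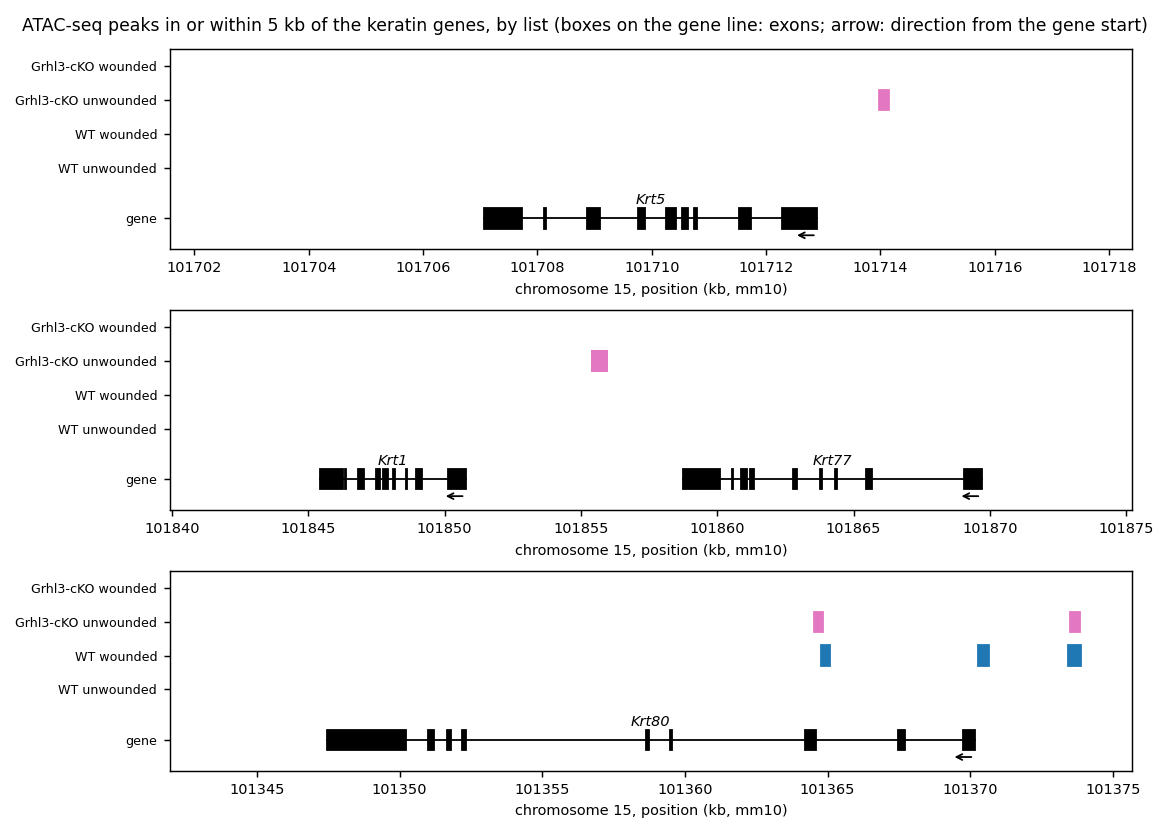
Map of the peaks in or within 5 kb of Krt5, Krt1, Krt77 and Krt80 along mm10 positions in kb, with exons as boxes on the gene line, an arrow from each gene start and 1 track per peak list. Only the WT wounded and the unwounded Grhl3-cKO-labelled tracks hold peaks.

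The sequences of peaks upstream of Krt5 and of Krt80 are printed to show what these regions hold, on the minus strand, which is the strand of the genes, 5′ to 3′ and from the mm10 genome. Capitals mark matches, on either strand, to AP-1 (TGANTCA) or AP-2 (GCCNNNGGC); the Grainyhead core (AACNNGTT) and the TATA box (TATAAA) were also searched and had 0 matches in these 3. The Krt5 peak of the unwounded list labelled Grhl3-cKO (chr15:101713971-101714153) holds 1 AP-2 match, found in 11.3% of the windows of that length at the centre of the peaks of its list, where the Grainyhead core is in 4.06% and the TATA box in 5.74%. For Krt80 the central 300 bases are shown. The peak just upstream of the start, called the start peak below (chr15:101370310-101370609), holds 2 AP-2 matches. Of windows of that length at the centre of WT wounded peaks, 16.0% hold at least 1. The distal peak (chr15:101373490-101373789) holds 1 AP-1 match, and 27.7% of the same windows hold at least 1, with the Grainyhead core in 6.54% and the TATA box in 10.5%. A match describes the letters only.
Krt5 peak: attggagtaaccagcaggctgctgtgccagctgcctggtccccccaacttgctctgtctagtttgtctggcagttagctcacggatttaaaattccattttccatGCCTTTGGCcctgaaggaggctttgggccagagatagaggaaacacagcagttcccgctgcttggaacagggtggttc
Krt80 start peak: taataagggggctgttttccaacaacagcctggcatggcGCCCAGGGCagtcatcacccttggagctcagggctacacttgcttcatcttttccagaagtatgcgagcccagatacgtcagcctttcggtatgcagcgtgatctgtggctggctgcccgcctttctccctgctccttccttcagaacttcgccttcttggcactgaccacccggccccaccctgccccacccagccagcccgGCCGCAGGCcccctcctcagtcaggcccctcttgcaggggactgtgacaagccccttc
Krt80 distal peak: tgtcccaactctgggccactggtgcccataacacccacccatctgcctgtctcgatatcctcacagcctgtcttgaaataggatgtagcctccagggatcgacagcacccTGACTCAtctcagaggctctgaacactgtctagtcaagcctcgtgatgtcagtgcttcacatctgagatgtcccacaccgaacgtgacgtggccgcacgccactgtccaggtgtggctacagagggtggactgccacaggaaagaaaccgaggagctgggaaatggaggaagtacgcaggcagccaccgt

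Of the 8 members, 6 had a promoter in the RefSeq table of GRCm38.p6, which gives 250 bases before to 50 after a start, and Krt1 and Krt80 were not in it. The Krt10 promoter (chr11:99389315-99389614, minus strand) is shown because Krt10 had the smallest P of the members between the wounded groups. It holds 1 match to the TATA box TATAAA, in capitals, 26 bases before the start, as 13.6% of 32851 promoters hold one anywhere. None of the same 4 motifs was found in the other 5 promoters, of which that of Krt14 is placed by the table at a start inside the gene model used here, and in all promoters of the table the AP-1 letters are found in 7.81%, the AP-2 letters in 16.6% and the Grainyhead core in 4.20%.
Krt10 promoter: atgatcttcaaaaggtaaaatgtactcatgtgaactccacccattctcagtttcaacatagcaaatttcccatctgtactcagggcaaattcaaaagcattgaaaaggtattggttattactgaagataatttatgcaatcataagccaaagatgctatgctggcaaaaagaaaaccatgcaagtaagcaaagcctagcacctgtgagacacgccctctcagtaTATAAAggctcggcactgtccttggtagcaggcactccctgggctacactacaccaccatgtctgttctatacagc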

How the data were processed

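RNA-seq and ATAC-seq libraries of sorted mouse keratinocytes were described by genotype label and wounding. For RNA-seq, the deposited tables give unnormalized whole-number counts by gene symbol, with 1 library in each. Kallisto and mm10 are named in the methods, but the tables end in tallies of the kind htseq-count writes, and which step made the counts is not stated. Those tallies (reads without a unique place, 3.46% to 4.74%, and ambiguous reads, 1.34% to 1.45%) were left out. For each peak the authors deposited a fold enrichment over local background. Peak significance was deposited as −log10 p-values. It was likewise deposited as −log10 q-values. The deposited score was not used.

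Here CPM was computed over gene counts. Genes kept by filterByExpr were TMM-normalized and tested with edgeR 4.0.16 (quasi-likelihood, two-sided, Benjamini-Hochberg over 14045 genes, all 7 libraries in 1 fit), after testing on simulated data. Fold changes against the single unwounded library used log2 CPM with a prior count of 2 and no test. The alternatives were RLE or library-size scaling, DESeq2 1.42.0, a likelihood ratio test, no filter, a minimum of 10 counts in each library, the compared libraries alone, no genotype term, a replicate block, a prior count of 0.5, other ratios, other peak distances (0 and 10 kb), peak thresholds and overlaps, and each library left out. A block by file number and correlations over 6 libraries were added after seeing the data.

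Named genes are the 8 members, the most abundant gene of each list, its largest positive and negative change among genes with a mean log2 CPM of at least 1, genes past the threshold, and the 5 genes most correlated with Krt10 and with Krt14; some genes that this rule names are not printed. The 7 lists hold stress, hair follicle and simple or mucosal keratins, basal, spinous and granular layer genes and transcription factors, beside 11 marker lists. Members and lists were chosen with earlier results of these data known. Gene models came from GENCODE vM21 (basic set), promoters from RefSeq GRCm38.p6. R 4.3.3, limma 3.58.1, Python 3.11.15, pandas 2.3.3, numpy 2.4.6, pysam 0.24.0, samtools 1.23.1 and matplotlib 3.10.9 were used.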

Additional observations from a re-analysis of the deposited data

How the results depend on the processing

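Directions and threshold sides of most values stayed as reported, and values that moved or changed sign are given here, where the cause was not tested unless fewer genes or libraries entered by construction. With WT wounding the 4 genes called became 24 by DESeq2, 49 by the likelihood ratio test, 96 with no filter, 0 with at least 10 counts in every library, 0 with only the libraries compared, and 0 to 29 when each library was left out. The 0 members called became 1 with no filter and 0 to 1 when each library was left out. Between the wounded groups the 0 genes called by edgeR, of which 567 had an unadjusted P under 0.05, became 3 by DESeq2, 1 by the likelihood ratio test, 51 with no filter, and 0 to 21 when each library was left out. The 0 members called there became 1 by DESeq2, 2 with no filter, and 0 to 2 when each library was left out. Over all wounded libraries the 5 genes called became 126 by DESeq2, 117 by the likelihood ratio test, 305 with no filter, 2 with at least 10 counts in every library, 0 without the genotype term, and 0 to 119 when each library was left out. Members called there became 3 with no filter. Within the Grhl3-cKO label the members past 2-fold were 0 to 2 with each wounded library left out. The log2 difference of the ratio was −0.21 with WT wounding by the mean of log2 CPM. With libraries left out it was 0.33 to 0.95 between the wounded groups and −0.96 to −0.34 within the Grhl3-cKO label. Member peaks numbered 1 in the WT wounded list and 1 in the unwounded list labelled Grhl3-cKO inside the genes (0 kb), 0 and 0 at a fold enrichment of at least 4, and 2 in the latter list at a q of at most 0.01.

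Signs changed for basal keratins and for several other named genes. With WT wounding, Krt80 stood at −0.00 by library size alone. When each library was left out, the log2 fold changes with WT wounding were −0.33 to 0.18 for Krt5, −0.29 to 0.40 for Krt14, −0.33 to 0.20 for Krt77, −0.45 to 0.36 for Krt80, −1.89 to 1.10 for Krt23, −0.12 to 0.03 for Trp63, −6.16 to 3.56 for Flg2, −0.05 to 0.29 for Col17a1 and −0.06 to 1.04 for Maf. Between the wounded groups they were −0.15 to 0.36 for Krt5, −0.16 to 0.53 for Krt14, −0.01 to 0.81 for Krt80, −0.04 to 0.90 for Krt32, −3.01 to 1.46 for Krt23, −1.03 to 0.50 for Klk7, −0.01 to 0.33 for Dst, −0.46 to 0.00 for Tgm1, −0.09 to 0.24 for Col17a1 and −0.57 to 0.53 for Maf. Over all wounded libraries they were −0.16 to 0.10 for Krt5, −0.48 to 0.21 for Krt78, −0.46 to 0.02 for Krt80, −0.56 to 0.93 for Krt23, −0.43 to 0.23 for Dst, −0.18 to 0.28 for Dmkn and −0.06 to 0.60 for Tgm3. List medians ran from 0.42 to 1.48 for stress keratins, −1.22 to 0.32 for simple and mucosal keratins, 0.09 to 0.57 for basal layer genes and −0.66 to 0.72 for granular genes with WT wounding. Between the wounded groups they ran from −0.86 to 0.16 for stress keratins, −0.50 to 1.64 for simple and mucosal keratins and −0.48 to 0.11 for basal layer genes. Krt1 and Krt10 changed sign in 0 of 48 settings each. A group left with 1 library is assumed to vary like the others, and without the unwounded cKO-labelled library the fit over all wounded libraries repeats the WT comparison.

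With the replicate number of the titles as a block, 2 members (Krt1 and Krt10) and 249 genes were called with WT wounding and 36 genes over all wounded libraries, and Krt80 stood at −0.02 and Krt23 at −0.24 with WT wounding. Blocked fits for WT wounding have nearly as many terms as libraries, so their spread is poorly estimated. Deviations of replicate 1 from its group mean correlated at 0.154 between WT unwounded and WT wounded and at −0.0386 between WT wounded and wounded Grhl3-cKO-labelled libraries across genes. The labels do not tie the numbers to animals, and Xist and Y-linked counts differ between the unwounded and wounded cKO-labelled libraries numbered 2, so the numbers were not taken as pairs. That unwounded library is numbered 2 in its title and 1 in its file. Blocked by the file's number, an alternative chosen after seeing the data, 249 genes and 2 members were called with WT wounding and 50 genes and 0 members over all wounded libraries, where Krt5 stood at 0.01 and Krt23 at −0.66. Krt2 and Lor had few counts, and Flg2 ranged from 0 to 407 counts between libraries.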
